A study of Drosophila melanogaster with 55 samples.

Results

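The regions described here are the H3K14ac peaks of w1118 embryos at stage 4 that share no base with a stage 4 peak of H3K9me2 or H3K9me3. They number 2880 of 3096 stage 4 H3K14ac peaks (93.0%) and are called methylation-free regions below. The remaining 216 peaks (6.98%), called methylated H3K14ac peaks, overlapped a peak of H3K9me2 in 208 cases and of H3K9me3 in 158 cases, and of both marks in 150. Absence of a peak says that the authors' peak caller found no enrichment at the depth of that library, not that the mark was absent. The lowest −log10 q was 2.01 and 2.03 in the stage 4 H3K9me2 and H3K9me3 lists, against 1.05 in the H3K14ac list.

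The series profiled Drosophila melanogaster embryos by chromatin immunoprecipitation with sequencing (ChIP-seq) and RNA sequencing, in 55 samples, and 29 deposited peak lists are used here. The stage series came from w1118, a white-eyed laboratory strain, with 1 library each for H3K14ac, H3K9me2 and H3K9me3 at stages 4, 5 and 6. The peak names in the stage 4 H3K14ac list read stage 3 to 4, while its label says stage 4. The knockdown embryos were at stage 5 and all carried GFP-SetDB1 and nos-Gal4, a driver active in the germline, with either Gcn5 RNAi or, as the control, RNAi against w (white, an eye colour gene). A further pair of genotypes, GFP-SetDB1 F578A/CyO and GFP-SetDB1 WT/CyO, both carried the balancer chromosome CyO, and their ChIP labels give no stage. Each knockdown or SetDB1 group had 2 libraries per antibody. H3K14ac was measured in the stage series and the knockdowns, GFP-SetDB1 and H3K9me3 in the knockdowns and in the F578A and WT embryos.

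H3K14ac is the acetylation of histone H3 at lysine 14, a mark found at promoters and other active elements, and Gcn5 is the acetyltransferase of the SAGA and ATAC complexes that writes acetyl groups on the histone H3 tail. Methylation of lysine 9 on the same tail marks constitutive heterochromatin, and SetDB1, called Eggless (egg) in flies, is one of the enzymes that place it. Stage 4 is the syncytial blastoderm, at stage 5 cell membranes form around the nuclei and the zygotic genome is switched on broadly, and at stage 6 gastrulation begins. The title of the series names a recruitment of SetDB1 through H3K14ac in heterochromatin. The methylation-free regions are the large remainder of early H3K14ac, which lies outside stage 4 H3K9 methylation by construction.

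The regions were chosen by the stage 4 peak calls of all 3 marks, so the stage 4 values are given as a description. Their width lay between 267 and 9710 bp, with a median of 739 bp and quartiles of 380 and 1162 bp. The authors' fold enrichment lay between 1.38 and 4.11, with a median of 2.15, and their −log10 q-value between 1.08 and 12.5, with a median of 1.6. The methylated H3K14ac peaks had a median width of 592 bp, a median fold enrichment of 2.03 and a median −log10 q of 1.83. A −log10 q of at least 5 was reached by 46 of the methylation-free regions. The distance to the nearest stage 4 H3K9 methylation peak had a median of 85199 bp and quartiles of 34384 and 161111 bp, and 21 methylation-free regions lay within 1000 bp of one.

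A few peaks lay close to the boundary of the rule. Just inside it, a region in DIP-lambda, a cell surface protein gene, at chr2R:427019-427309 was 24 bp from a methylation peak and had a fold enrichment of 1.70. The next were chr2R:6318527-6319434, between genes, at 183 bp and 2.03-fold, and chr2R:24762857-24763459, at CG12848 and CG3894, at 233 bp and 2.60-fold. Just outside it, the peak chr2R:22983736-22984075 in CG32834 shared 90 bp with methylation (2.09-fold). The peak chr2L:16785755-16786091 in Mhc, the muscle myosin heavy chain gene, shared 140 bp (2.22-fold), and chr2L:22429782-22430503, between genes, shared 158 bp (1.6-fold). All coordinates are those of the authors' lists, on build dm6 per the submitters' processing notes.

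The H3K14ac lists of w1118 held 3096, 9603 and 10561 peaks at stages 4, 5 and 6 and covered 2.91, 10.2 and 25.5 Mb, and their sequencing depth is unknown. The knockdown H3K14ac lists held 86 and 510 peaks from 1.47 and 1.87 M fragments in the Gcn5 knockdown, and 2158 and 832 peaks from 5.34 and 3.14 M fragments in the w knockdown. Fewer peaks and fewer fragments therefore went together with the Gcn5 knockdown, and Gcn5 replicate 1 stood apart with the shortest list. The GFP-SetDB1 lists of the knockdowns held 115 and 149 peaks (Gcn5) and 963 and 1409 peaks (w), those of the SetDB1 alleles 2493 and 2345 (F578A) and 3216 and 2606 (WT). As a background, 181159 adjoining windows of 739 bp on the 6 chromosome arms were scored the same way. The windows all have the median width, while the regions vary in width, so a window's share is a guide to how much of the genome a list touches. Intervals on shares are Wilson 95% intervals and cover counting error only. The labels do not say whether replicates came from separate collections, so the p-values measure only the spread between these libraries, and 2 libraries against 2 cannot give an exact permutation p below 0.33.

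Acetylation at the methylation-free regions was found again at the later stages. A stage 5 H3K14ac peak overlapped 2193 regions (76.1%, interval 74.6 to 77.7), against 27.8% of the methylated H3K14ac peaks and 12.9% of the genome windows. By stage 6 it was 2630 regions (91.3%, interval 90.2 to 92.3), against 38.4% of the methylated peaks and 24.8% of the windows. Both later stages held a peak at 2137 regions (74.2%), stage 6 alone at 493 (17.1%), stage 5 alone at 56 (1.94%) and neither at 194 (6.74%). Of the methylated peaks, 110 (50.9%) had no H3K14ac peak at either later stage. There is 1 library per stage, so none of these differences was tested. The share depended on how much of the later list was used. With as many peaks as the stage 4 list holds, those of highest −log10 q, stage 5 overlapped 40.6% of the regions and stage 6 49.3%. With only later peaks of −log10 q of at least 5, it was 15.6% at stage 5 and 44.4% at stage 6.

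The acetylated stretches at these places were wider in the later lists. All 2880 regions had a median width of 739 bp at stage 4, and those found at both later stages 805 bp. Over the regions found again, the overlapping H3K14ac peak had a median width of 1392 bp at stage 5 and 3531 bp at stage 6. Over all H3K14ac peaks of each list the medians were 727, 782 and 1189 bp. At stage 5 the 2193 regions lay in 2109 distinct peaks. By stage 6 the 2630 regions lay in 2080 distinct peaks, of which the longest measured 88463 bp and 1 peak took in 10 regions. A longer peak is more likely to overlap a given region, so the width comparison with all peaks carries that selection.

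**Figure D1:**
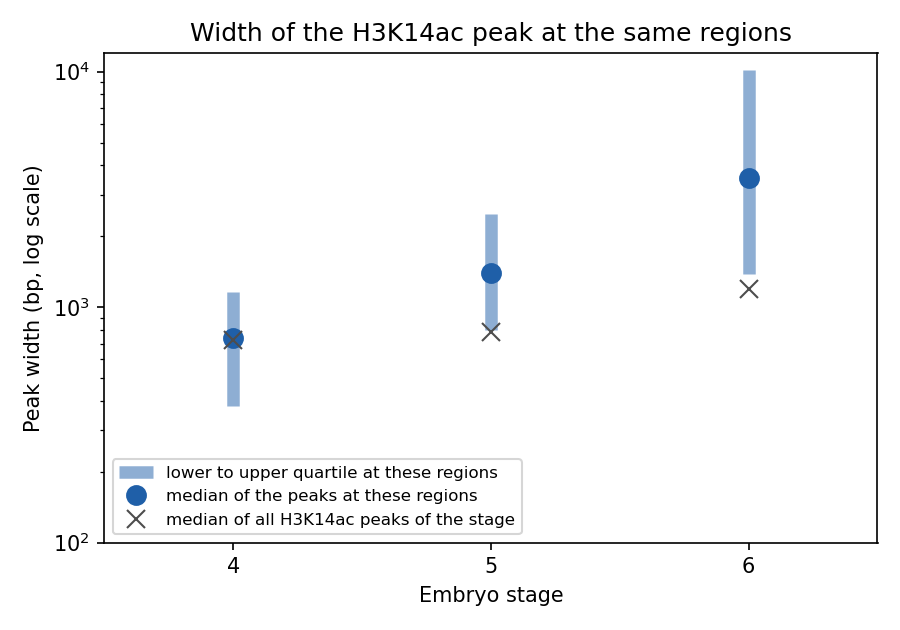
Width of the H3K14ac peak at the methylation-free regions in w1118 embryos (vertical axis, bp, log scale) by stage (horizontal axis). Circles are medians over 2880, 2193 and 2630 regions, bars run from the lower to the upper quartile, and crosses are the medians over all peaks of the stage. The circle rises to 3531 bp at stage 6, where the cross lies at 1189 bp.

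Regions that were stronger at stage 4 were found again more often. In quartiles of stage 4 fold enrichment, low to high, the share with a stage 5 peak was 61.2%, 70.8%, 81.0% and 91.5%, and with a stage 6 peak 85.3%, 91.0%, 92.2% and 96.8%. The strongest quartile was also the narrowest, with a median width of 523 bp, against 757, 776 and 827 bp in the quartiles below it. In quartiles of stage 4 width the stage 5 shares ran from 69.1% to 87.1% and the stage 6 shares from 87.3% to 96.0%. The quartile shares are descriptions, since a stronger or wider stage 4 peak was part of how the list was made.

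**Figure D2:**
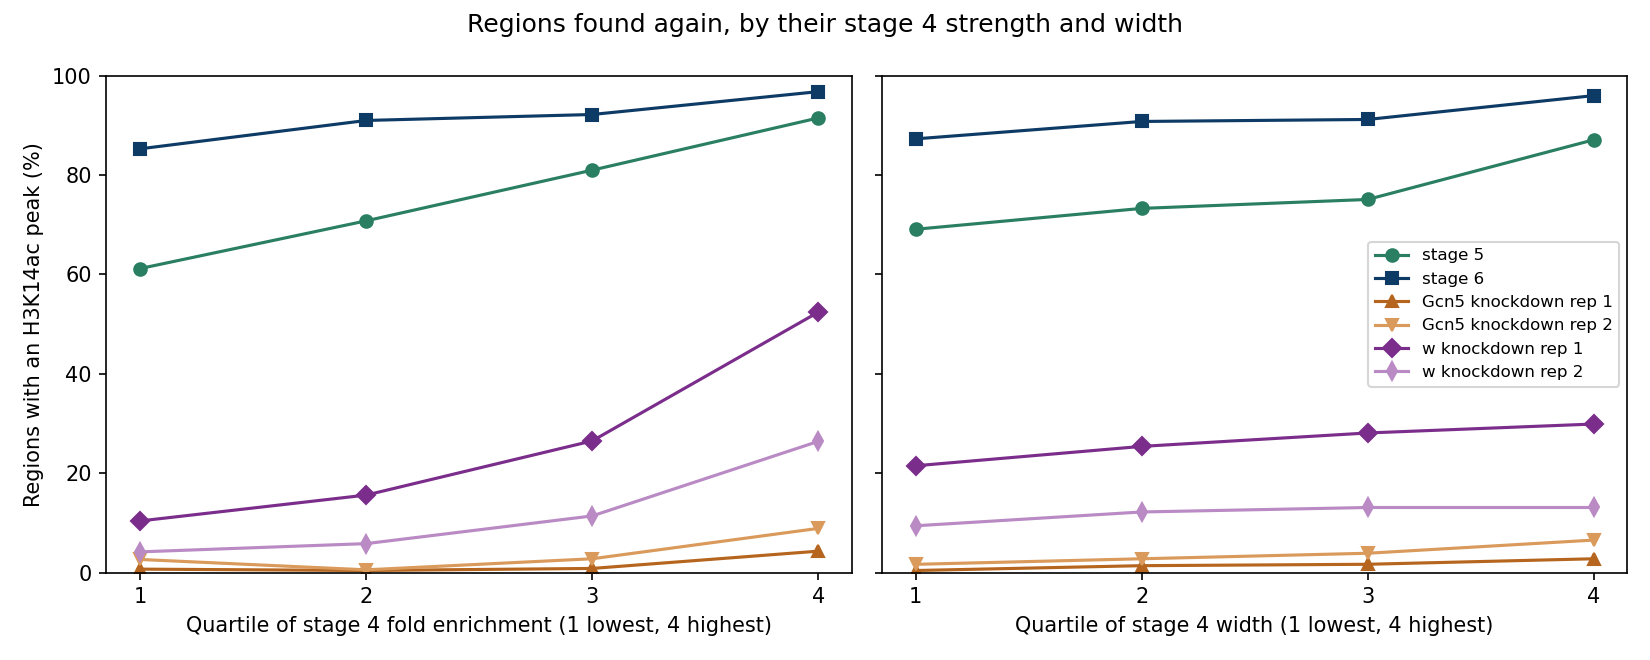
Share of methylation-free regions with an H3K14ac peak in each other list (vertical axis, percent) by quartile of stage 4 fold enrichment (left) and stage 4 width (right). Lines join the shares of 1 library over the quartiles. Along the fold axis the stage 5 line climbs to 91.5% and the first w knockdown library to 52.4%, while both Gcn5 knockdown libraries stay below 10%.

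The region of highest stage 4 fold enrichment lay at DCTN3-p24, a dynactin subunit gene, and CG9890 (chr2R:23062215-23062586, 372 bp). Its fold enrichment was 4.11 at stage 4, 2.96 at stage 5 and 4.51 at stage 6, and it was listed in w knockdown replicate 1 alone (3.03) among the knockdowns. Here and below, a fold enrichment from another list belongs to the whole peak that overlaps the region, the highest where several do. Such a peak can be longer than the region and shared with neighbouring regions. The second, at Ppa, an F-box protein gene (chr2R:22687132-22689433, 2302 bp), had 3.66, 3.70 and 3.68 at stages 4, 5 and 6. It was 1 of 11 regions with a peak in all 6 other H3K14ac lists, at 3.48 and 3.41 in the Gcn5 knockdown and 3.76 and 3.56 in the w knockdown. Next came CG1116 beside the proteasome gene Prosbeta2R2 (3.66), Rap1, a small GTPase gene (3.54), and Trim9, a ubiquitin ligase gene (3.44). All 5 had a peak at both later stages.

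Of the 5 widest regions, 4 lay in genes. The widest, 9710 bp at chr2L:4552547-4562256, was inside dpy, which encodes a giant protein of the extracellular matrix. Its fold enrichment was 2.25 at stage 4, and the overlapping peaks had 1.95 at stage 5 and 1.88 at stage 6. Other regions in dpy carried the same stage 6 value. The next measured 8335 bp at robo2, a receptor of axon guidance, and 8192 bp at Ten-m, a teneurin of cell adhesion. A stretch of 7133 bp between genes on arm 3R and one of 6807 bp in Ank2, an ankyrin gene that overlaps CG32373 and CG44195 there, completed the 5. The Ten-m and Ank2 stretches were among the 19 regions with peaks in both Gcn5 knockdown libraries, at 3.86 and 3.16 for Ten-m and 3.19 and 3.42 for Ank2. By number of regions, and chosen after the values were seen, dpy led with 19 in its 136839 bp, followed by the phosphatase gene Ptp61F with 15 and olf413 with 13.

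Of the regions without a later peak, the 3 of highest stage 4 fold enrichment lay at bbc, a phospholipid synthesis gene (2.53), at CG10413 (2.48) and in Hr4, a nuclear receptor gene (2.47). None of the 3 had a peak in any knockdown H3K14ac list. That is near the background, since 2.62% of the regions without a stage 5 peak were in either w library. In either Gcn5 library were 4.62% of all regions. The 194 regions of this kind had a median stage 4 fold enrichment of 2.09 and a median width of 518 bp, against 2.18 and 805 bp for the regions found at both later stages.

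The knockdowns ask how much H3K14ac depends on Gcn5. An H3K14ac peak lay on 45 and 107 methylation-free regions in the Gcn5 knockdown (1.56% and 3.72%, windows 0.0778% and 0.484%). In the w knockdown it lay on 755 and 344 (26.2% and 11.9%, windows 2.29% and 0.831%). Both Gcn5 libraries were below both w libraries, with means of 2.64% ± 1.52 in the Gcn5 knockdown and 19.1% ± 10.1 in the w knockdown (SD, n = 2 each). The difference was -16.4 percentage points (exact permutation test, two-sided p = 0.33, the smallest this design allows), so the test could not pass. Replicate 1 of the w knockdown decided much of it, and without that library the difference was -9.31. The methylated H3K14ac peaks stood at 1.39% and 14.4% in the Gcn5 knockdown and 15.3% and 6.02% in the w knockdown, and there the groups overlapped.

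Library size moved with these counts. With the same number of peaks in every list, the 86 of highest −log10 q, the regions overlapped numbered 45 and 21 in the Gcn5 knockdown and 50 and 44 in the w knockdown. The difference was then -0.486 percentage points and the groups overlapped (exact p = 0.667). The share of each list's own peaks that lay on methylation-free regions was 52.3% and 22.4% in the Gcn5 knockdown and 36.0% and 42.1% in the w knockdown. Fewer acetylated regions and a weaker library cannot be told apart from these lists.

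Few regions had a peak in every knockdown library, a count that the 86 peaks of the Gcn5 replicate 1 list kept low beforehand. Both w libraries held a peak at 308 regions (10.7%), w replicate 1 alone at 447, w replicate 2 alone at 36, and neither at 2089 (72.5%). Of the 344 regions in w replicate 2, 308 (89.5%) were also in replicate 1. Nearly all regions of both w libraries, 307 of 308, had peaks at stages 5 and 6. Of these 308, the Gcn5 knockdown had a peak at 60 (19.5%) in at least 1 library, at 11 in both and at 248 (80.5%) in none. Turned round, 133 regions (4.62%) had a peak in either Gcn5 library, and 110 of them (82.7%) had one in either w library. All 19 regions in both Gcn5 libraries were in at least 1 w library. Among regions with a stage 5 peak in w1118, 35.2% were in either w library, against 2.62% of those without.

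**Figure D3:**
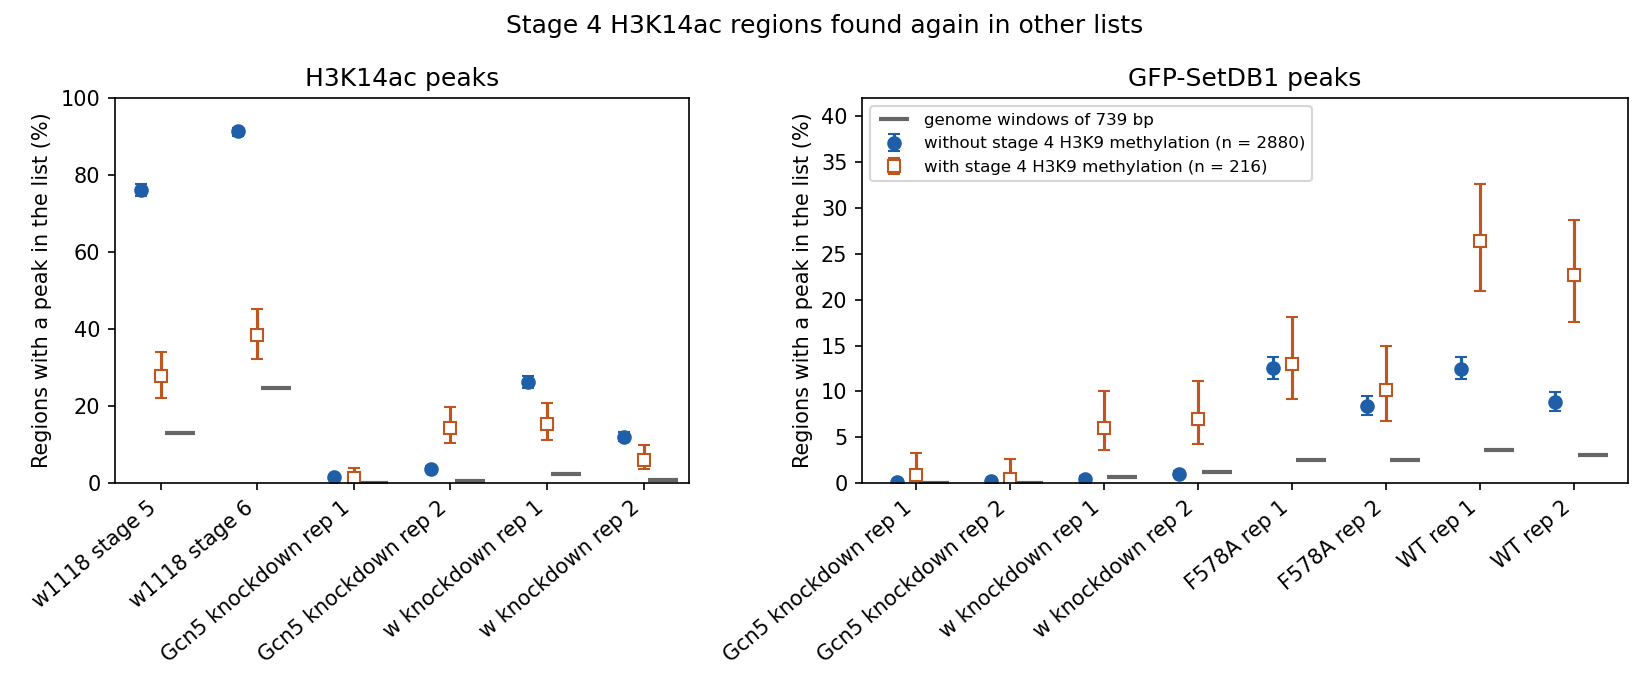
Share of regions with a peak in each list (vertical axis, percent) for H3K14ac (left) and GFP-SetDB1 (right), 1 library per position. Filled circles are the 2880 methylation-free regions, open squares the 216 methylated H3K14ac peaks, both with Wilson 95% intervals, and dashes the genome windows. In H3K14ac the circles stand at 91.3% at stage 6, 1.56% and 3.72% in the Gcn5 knockdown and 26.2% and 11.9% in the w knockdown.

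The 5 regions with the highest mean fold enrichment in both Gcn5 knockdown libraries comprised 4 at genes and 1 between genes. Calr, the gene of the endoplasmic reticulum chaperone calreticulin, stood at 4.56 and 3.90 in the Gcn5 knockdown, against 2.59 in w replicate 1 and no peak in w replicate 2. Pgk, a glycolytic enzyme gene, together with Bacc, stood at 4.59 and 3.51 in the Gcn5 knockdown and 2.95 and 3.53 in the w knockdown. CG12974 and pzg had 4.36 and 3.39 in the Gcn5 knockdown and 3.33 and 2.87 in the w knockdown. The region at kra had 4.02 and 3.32 in the Gcn5 knockdown and 2.70 in w replicate 1 alone. The fifth, chr3R:12487052-12487988 between genes, had 3.33 and 3.99 in the Gcn5 knockdown and 1.87 in w replicate 1 alone. A fold enrichment is the authors' value against the input of its own library, so it ranks peaks within a list and shows no change between lists.

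Peaks at stage 5, stage 6 and in both w libraries but in no Gcn5 library marked 247 regions. Of all 2880 methylation-free regions only 4.62% had a peak in either Gcn5 library, from lists of 86 and 510 peaks. Absence there was thus the rule and does not set these regions apart. The strongest of them at stage 4 was Rap1 (chr3L:1861742-1862221), at 3.54, 2.54 and 3.12 at stages 4, 5 and 6 and 3.30 and 3.76 in the w knockdown. Galphaq, a G-protein subunit gene, followed together with CG45086 at 3.29 at stage 4 and 2.56 and 3.14 in the w knockdown. CG1316 beside srw (3.00), shg, the E-cadherin gene (2.99), and lncRNA:Hsromega, a heat-shock noncoding RNA gene (2.99), were the others named by the rule.

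The methylation-free regions stayed largely outside H3K9 methylation as the embryos aged. An H3K9me2 or H3K9me3 peak overlapped 9 of them at stage 5 (0.312%, interval 0.164 to 0.593) and 18 at stage 6 (0.625%, interval 0.396 to 0.986). Genome windows stood at 6.65% and 9.23%, and the methylated H3K14ac peaks at 87.5% and 94.9%. Either later stage marked 23 regions, both stages 4. Regions chosen for no methylation at stage 4 start below the windows, so the later shares carry that choice. The strongest of the 4 at stage 4 lay at Gsc, the goosecoid homeobox gene (chr2L:593647-594210), with H3K9me3 at 2.94 at stage 5 and 2.27 at stage 6. Its H3K14ac was 2.67, 2.21 and 2.39 at stages 4, 5 and 6, so both marks were listed at the same place in these libraries of whole embryos. The region chr3R:12487052-12487988 had H3K9me3 at 2.85 and 2.86, and chr2R:6318527-6319434, which lies 183 bp from a stage 4 methylation peak, had H3K9me3 at 3.36 at stage 5 and H3K9me2 at 2.29 at stage 6.

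H3K9me3 in the knockdowns was rare at these regions too. It lay on 58 and 79 regions in the Gcn5 knockdown (2.01% and 2.74%, windows 8.02% and 9.11%) and on 38 and 31 in the w knockdown (1.32% and 1.08%, windows 6.02% and 5.81%). The means were 2.38% ± 0.516 in the Gcn5 knockdown and 1.20% ± 0.172 in the w knockdown (SD, n = 2 each), a difference of 1.18 percentage points (exact permutation test, two-sided p = 0.33). All 4 shares lay below their windows, which carries the choice of regions without stage 4 H3K9 methylation. Both the regions and the windows were higher in the Gcn5 knockdown. The lowest −log10 q was 1.01 to 1.05 in these lists and 2.03 to 2.05 in the H3K9 methylation lists of stages 5 and 6. Shares from both sets of lists are therefore not on one scale. The fragments behind the knockdown lists were 1.64 and 2.17 M in the Gcn5 knockdown and 2.41 and 2.56 M in the w knockdown. With 3984 peaks in every list, the regions numbered 33 and 33 in the Gcn5 knockdown and 33 and 31 in the w knockdown, and the difference was 0.0347 percentage points. The methylated H3K14ac peaks stood at 88.0% in both Gcn5 libraries and at 69.0% and 67.6% in the w libraries.

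In the SetDB1 alleles, H3K9me3 lay on 16 and 9 regions in F578A (0.556% and 0.312%, windows 5.02% and 4.52%) and on 22 and 21 in WT (0.764% and 0.729%, windows 6.99% and 7.19%). The means were 0.434% ± 0.172 in F578A and 0.747% ± 0.0246 in WT (SD, n = 2 each), a difference of -0.312 percentage points (exact permutation test, two-sided p = 0.33). The groups did not overlap, and the H3K9me3 lists of F578A came from 1.46 and 1.43 M fragments, those of WT from 2.63 and 2.47 M. The part of this depth in the result was not tested. Without F578A replicate 2 the difference was -0.191.

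GFP-SetDB1 was listed at a minority of the methylation-free regions. In the SetDB1 alleles it lay on 361 and 241 regions in F578A (12.5% and 8.37%, windows 2.49% and 2.48%) and on 358 and 255 in WT (12.4% and 8.85%, windows 3.64% and 3.11%). The means were 10.5% ± 2.95 in F578A and 10.6% ± 2.53 in WT (SD, n = 2 each), and the difference of -0.191 percentage points was smaller than the spread within either genotype (exact permutation test, two-sided p = 1.00). Its sign depended on single libraries, with 1.89 without F578A replicate 2 and -2.27 without F578A replicate 1, 1.6 without WT replicate 1 and -1.98 without WT replicate 2. At the methylated H3K14ac peaks the shares were 13.0% and 10.2% in F578A and 26.4% and 22.7% in WT, a difference of -13.0 percentage points without overlap (exact p = 0.33). Both WT libraries shared 229 regions, and 177 of these (77.3%) were in both F578A libraries. The same share for the methylated peaks or for all GFP-SetDB1 peaks is not given here, so it cannot be called particular to these regions.

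The regions with GFP-SetDB1 in both WT libraries were also listed often in H3K14ac. Of the 229, 84 (36.7%) had H3K14ac in both w knockdown libraries, against 181 of 2496 regions (7.25%) without GFP-SetDB1 in WT. A stage 6 H3K14ac peak was at 98.7% of them and at 90.3% of the others. H3K9me3 in either WT library was at 15 of the 229 (6.55%). Over all methylation-free regions it was at 0.764% and 0.729% in the single WT libraries. H3K9 methylation at stage 5 or 6 was at 5 of the 229 (2.18%), against 23 of all 2880 regions (0.799%). Stronger stage 4 peaks carried GFP-SetDB1 more often, at 6.81%, 7.78%, 11.5% and 23.6% of the regions over the quartiles of fold enrichment in WT replicate 1 and 6.39%, 5.00%, 8.06% and 16.0% in WT replicate 2. Strength at stage 4 was therefore not held equal between both sets, and none of these shares was tested. Chosen after the values were seen, the 5 with the highest mean GFP-SetDB1 fold enrichment in WT were osa, a subunit gene of the Brahma remodelling complex, Sry-alpha, a cellularization gene with its neighbours janA and Sry-beta, RpL26, Pex23 and RpL32. At osa the enrichment was 12.5 and 10.4 in F578A and 12.9 and 12.2 in WT. At Sry-alpha it was 14.3 and 14.9 in F578A and 11.3 and 11 in WT. All 5 had peaks in all 4 libraries.

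In the knockdowns GFP-SetDB1 lay on 3 and 6 regions in the Gcn5 knockdown (0.104% and 0.208%, windows 0.0282% and 0.0469%). It lay on 13 and 27 in the w knockdown (0.451% and 0.938%, windows 0.685% and 1.20%). The w shares were thus below the windows, unlike those of WT embryos. The means were 0.156% ± 0.0737 in the Gcn5 knockdown and 0.694% ± 0.344 in the w knockdown (SD, n = 2 each), a difference of -0.538 percentage points (exact permutation test, two-sided p = 0.33). The fragments were 1.63 and 2.08 M in the Gcn5 knockdown and 5.37 and 6.05 M in the w knockdown. With 115 peaks in every list the direction turned, to 0.0868 percentage points, and without w replicate 2 the difference was -0.295.

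Genes lay under most of the regions, as they did under most of the genome windows. A gene was touched by 2405 of the regions (83.5%), against 42.6% of the methylated H3K14ac peaks and 73.6% of the windows. Wholly inside a gene lay 1907 regions (66.2%), against 40.3% of the methylated peaks, while 475 regions lay between genes. Within 500 bp of either end of a gene lay 1364 regions (47.4%, interval 45.5 to 49.2), against 7.41% of the methylated H3K14ac peaks and 26.1% of the windows. Strand was not known, so starts and ends of genes were not told apart. Seen from the genes, 2329 of 17807 (13.1%) had such a region within 500 bp of an end, and among protein-coding genes 2018 of 13946 (14.5%). Protein-coding genes touched by a region had a median length of 3462 bp, the others 1997 bp.

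Genes that pattern the early embryo were among them. A region lay within 500 bp of an end of 3 of 10 gap genes, 6 of 16 pair-rule and segment polarity genes, 6 of 19 dorsoventral genes and 5 of 14 genes of the X signal and of cellularization, read against the 14.5% of all protein-coding genes. Counted as touching the gene anywhere, they were 6, 14, 10 and 7, against 16.9% of all. These lists are short, so 1 gene moves a share by several points, and gene length differed, with medians of 3211, 3850, 3668 and 1302 bp for the 4 lists and 2161 bp for all protein-coding genes. The X-linked genes of these 4 lists had no region near an end. They numbered 3, 1, 4 and 7 in the order above, with run in more than 1 list. Of all protein-coding genes on X, only 71 of 2197 (3.23%) had one. None among so few genes is therefore near the background of X.

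The gap genes with such a region were hkb, tll and hb, transcription factors that divide the embryo along its length. At tll (chr3R:30851924-30854980, 3057 bp) the fold enrichment was 2.22, 2.61 and 2.23 at stages 4, 5 and 6, and 2.56 and 2.84 in the w knockdown. The region at hkb had 2.47, 2.94 and 2.18 at the same stages and 2.32 and 2.86 in the w knockdown. It was 1 of the 9 regions with H3K9 methylation at stage 5 (H3K9me3 at 3.15) and had none at stage 6. The region near an end of hb stood at 2.06 at stage 4 and had no knockdown peak. A stronger region that touched hb away from its ends (2.46 at stage 4) had a peak in w replicate 1 (2.14). None of the 3 regions near an end had a peak in a Gcn5 library. All protein-coding genes with a region stood at 2.82% and 5.25% there, against 48.1% and 23.4% in the w libraries.

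Of the pair-rule and segment polarity genes, opa, a zinc finger factor, and prd, a paired-domain factor, led with 2.72 and 2.71 at stage 4, followed by gsb (2.39), slp1 (2.33) and ftz (2.17), also transcription factors. A peak in the Gcn5 knockdown was listed at opa in replicate 1 (3.90) and at slp1 in replicate 2 (3.07), against 3.30 and 3.36 at opa in the w knockdown and 2.38 at slp1 in w replicate 1. Among dorsoventral genes, sna, which sets mesoderm fate, stood at 2.57, Doc3 at 2.31, ind at 2.28, zen at 2.2 and tin at 2.16. The zen region (chr3R:6751388-6757697, 6310 bp) also covered bcd, the maternal anterior determinant. The 6 dorsoventral regions, twi included, all had a peak in w replicate 1, 4 of them also in w replicate 2 and none in a Gcn5 library. Over all protein-coding genes with a region the Gcn5 shares were 2.82% and 5.25% and the w shares 48.1% and 23.4%, so none of 6 in the Gcn5 libraries is near the background.

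Sry-alpha (2.38), slam (2.35), bnk (2.31), term (2.31) and E(spl)m5-HLH (2.25) were the genes of the X signal and cellularization list. The region near an end of slam, a gene of membrane growth in cellularization, had a stage 5 peak (2.31) and none at stage 6. It touched no gene, and another region, inside slam, had an H3K14ac peak at both later stages. The Hox gene with a region near an end was lab (2.19), 1 of 8, while 5 of 8 Hox genes, which are long, were touched somewhere. Of the early activators, cad (2.99) and bcd were counted near an end, 2 of 9. The gene of the pioneer factor Zelda, zld, was touched inside by a region of 2.34, with 2.37 and 2.38 at stages 5 and 6 and, in the knockdowns, 4.29 in Gcn5 replicate 2 and 2.38 and 3.46 in the w libraries, and it was named after its values were seen.

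**Figure D4:**
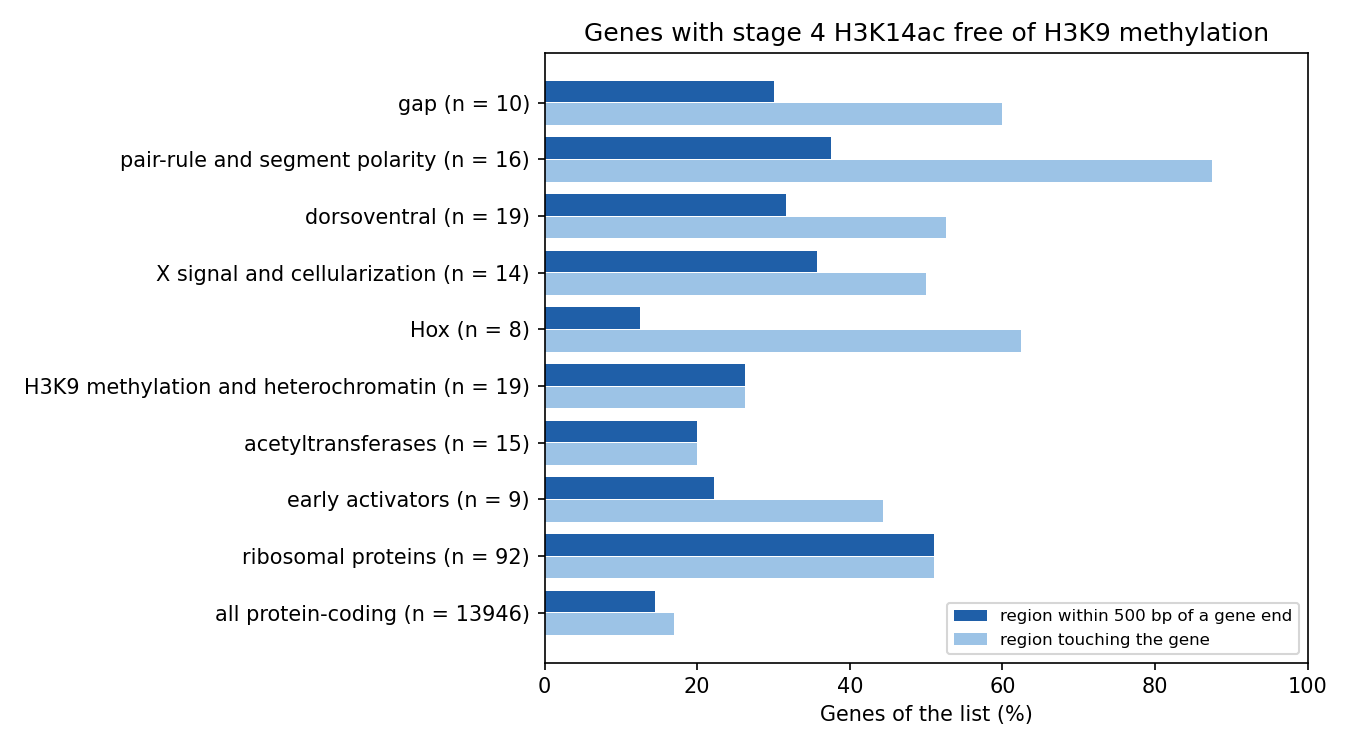
Share of the genes of each list (horizontal axis, percent) with a methylation-free region within 500 bp of a gene end (dark bars) or touching the gene anywhere (light bars), with the number of genes in brackets. Ribosomal protein genes stand at 51.1% in both counts, while pair-rule and segment polarity genes stand at 37.5% and 87.5%, against 14.5% and 16.9% of all protein-coding genes.

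Ribosomal protein genes held the largest share near a gene end among the 9 lists. A region lay near an end of 47 of 92 (51.1%), and 46 and 47 of these had a peak at stages 5 and 6. Their regions were narrow, with a median width of 478 bp and a median stage 4 fold enrichment of 2.45, against 731 bp and 2.25 at all protein-coding genes with a region. The strongest were RpLP2 and RpL26 (3.06 each), RpL22 (3.02), RpL3 (2.98) and RpL36A (2.97). H3K14ac lay at 0 and 4 of the 47 in the Gcn5 knockdown (0% and 8.51%) and at 25 and 13 in the w knockdown (53.2% and 27.7%), against 2.82% and 5.25% and against 48.1% and 23.4% of all protein-coding genes with a region, so these shares were near the background. GFP-SetDB1 lay at 23 and 14 of them in F578A and 25 and 13 in WT. For all 2018 protein-coding genes the GFP-SetDB1 shares were 30.9% and 20.1% in F578A and 29.1% and 19.2% in WT. At the gap, pair-rule and segment polarity, and dorsoventral genes with a region it was listed at none of 15, in either genotype.

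Some genes of the chromatin machinery itself carried such regions, on lists too short to tell from all protein-coding genes. Of 19 genes of H3K9 methylation and heterochromatin, 5 had one near an end (26.3%), read against 14.5% of all protein-coding genes. The region near egg, the SetDB1 gene (chr2R:24774876-24775223, in the neighbouring Eps-15), had a fold enrichment of 3.01, 2.84 and 3.12 at stages 4, 5 and 6, and lay 9800 bp from H3K9 methylation. The others were HP1c, a heterochromatin protein family gene (2.85), ADD1, a partner of heterochromatin protein (2.63), Su(var)3-9, an H3K9 methyltransferase gene (2.36), and HP6 (2.13). Of 15 acetyltransferase genes, 3 had one on a list as short, and Gcn5 was the strongest. At Gcn5 (chr3L:12523578-12523971, 394 bp) the fold enrichment was 3.40, 2.69 and 2.45 at stages 4, 5 and 6. In the knockdowns that region had no peak in the Gcn5 libraries, 3.17 in w replicate 1 and none in w replicate 2. Ada2a, an adaptor that works with Gcn5, stood at 2.76 at stage 4, in a region that also touched Polr2D and lay near moi and Tgs1. That region had 3.59 in Gcn5 replicate 2 and no peak in Gcn5 replicate 1 or in either w library. Br140 stood at 2.22 at stage 4, with 2.59 and 2.88 in the w libraries and no peak in the Gcn5 libraries. Whether the knockdown lowered Gcn5 was not checked, since no gene counts were used here.

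Genes in repeated copies showed a different picture. Of 100 annotated 5S rRNA genes, 38 had a region near an end, against 13.1% of all genes, but these genes lie side by side and rest on few regions. The 5 regions that touched them lay within chr2R:19730668-19762360 and had a peak at stage 6 and none at stage 5. Reads from near-identical copies cannot be placed with certainty, so those values are uncertain. No region lay near an end of the 111 histone genes of the repeated clusters (H1, H2A, H2B, H3 and H4). Histone genes outside them were not counted here, and His3.3A, an H3.3 gene named after its values were seen, did carry a region (2.57 at stage 4).

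The X chromosome held few of the regions. Per Mb there were 3.31 on X (78 regions), against 26.2 on 2L, 28.6 on 2R, 22.3 on 3L and 25.7 on 3R, while the small chromosome 4 had 5.19 (7 regions). The density on X was 0.129 of that on the 4 large autosome arms, and for annotated genes the same ratio was 0.842. Near an end of protein-coding genes, a region was found for 71 of 2197 on X (3.23%), against 15.2% on 2L, 17.1% on 2R, 16.1% on 3L and 17.8% on 3R. In whole H3K14ac lists the ratio was 0.174 at stage 4, 0.361 at stage 5 and 0.609 at stage 6. In the knockdown H3K14ac lists it was 0.438 and 0.676 in the Gcn5 knockdown and 0.365 and 0.345 in the w knockdown. GFP-SetDB1 lists stood at 1.26 and 1.14 in F578A and 1.07 and 1.12 in WT. Those of the knockdowns stood at 1.00 and 0.981 in the w knockdown and 1.39 and 2.06 in the Gcn5 knockdown, the latter on 6 and 12 X peaks. The H3K9 methylation lists were below 1 too, from 0.501 in stage 6 H3K9me3 to 0.805 in H3K9me3 of F578A replicate 2, among those of stages 5 and 6, the knockdowns and the SetDB1 alleles. The sex of the embryos was not given, and X dose in the ChIP and in its input was not examined. Of the regions on X, 82.1% had a stage 5 peak and 96.2% a stage 6 peak, against 74.6% to 77.7% and 89.3% to 93.0% on the 4 large autosome arms. Among them were RpL22 (3.02) and the pair-rule gene run, touched by a region of 2.10.

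**Figure D5:**
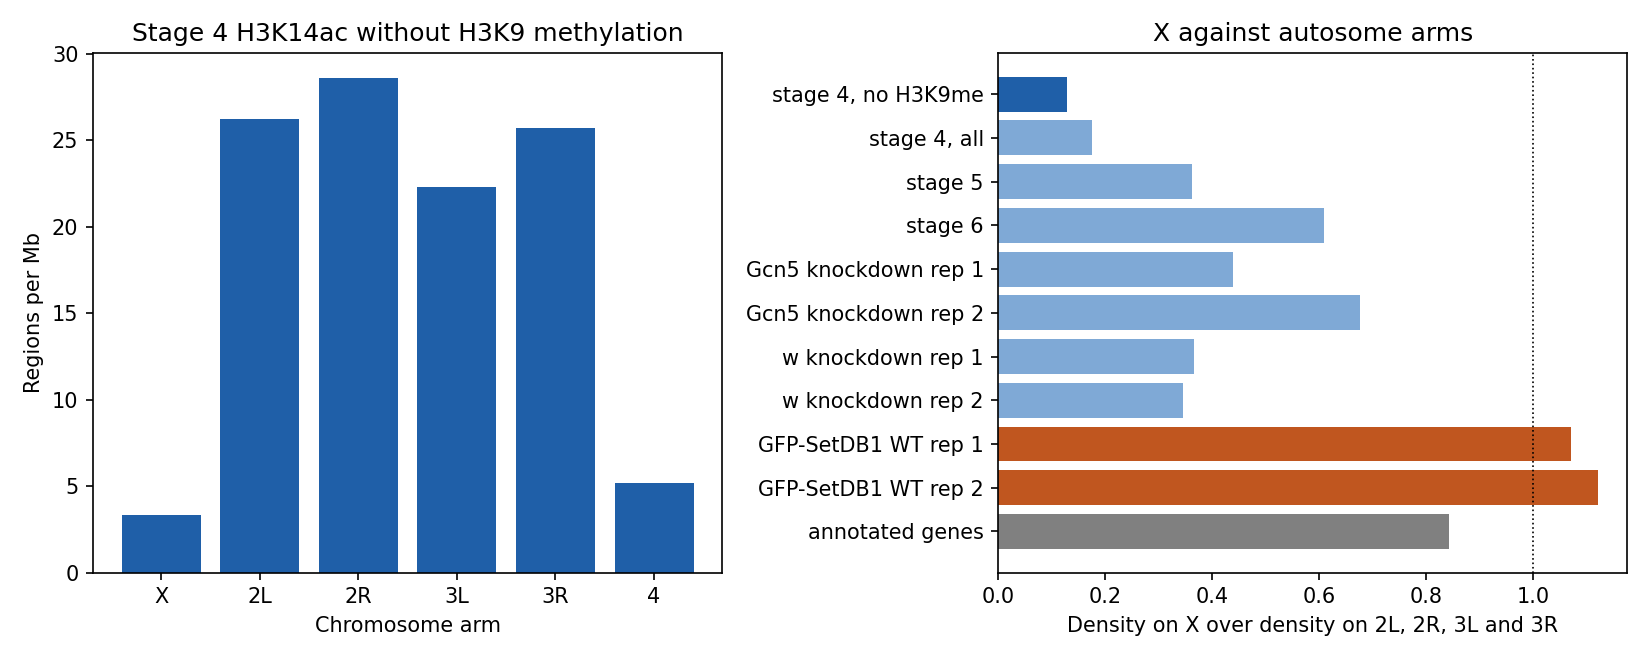
Left, methylation-free regions per Mb (vertical axis) on each chromosome arm (horizontal axis). Right, density on X divided by density on arms 2L, 2R, 3L and 3R (horizontal axis) for the regions, for all H3K14ac peaks by stage and knockdown library, for GFP-SetDB1 peaks in WT embryos and for annotated genes, with 1 marked by the dotted line. The regions stand at 0.129 and stage 6 H3K14ac at 0.609, while both GFP-SetDB1 bars lie above 1.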

How the data were processed

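Peak lists of ChIP-seq from Drosophila embryos were analysed. The knockdown, F578A and WT lists were made by the authors with MACS 2.2.6 in broad mode (broad cutoff 0.1, duplicates removed, against input), per the file headers. The stage lists carry no settings, and their control, cutoff and depth are not given in the sources used here; those for H3K9 methylation have the columns of narrow lists. Trim Galore 0.6.0, Bowtie2 2.3.5.1 and the builds dm6 and BDGP6 are named without roles, per the submitters' processing notes. Each list gives the fold enrichment (a ratio to input), 2 significance values on the −log10 scale (p-value and q-value) and the pileup signal (coverage), as the authors deposited them.

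With Python 3.11.15, pandas 2.3.3, numpy 2.4.6 and scipy 1.17.1, regions were intersected with each list at a minimum of 1 bp, and the share of regions with a peak was computed per library. Groups were compared by exact permutation tests of these shares over libraries (2 against 2, two-sided). Overlap and permutation steps were tested on simulated data. Genes came from RefSeq, Release 6, with coordinates for 17807. The planned gene start was replaced by either gene end within 500 bp, because the table has no strand, and 3 listed genes were matched through older names. No sequences or motifs are shown, as no genome was used here, and RNA counts of repeats, which have no coordinates, were not used. Fragment numbers after filtering, per the file headers, were 1.43 to 9.43 M. Replicate numbers recur across groups, and with 2 pairs a pairing could not be shown.

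The regions and gene lists were chosen with earlier results of these data known. Named by rule were the 5 regions of highest stage 4 fold enrichment, the 5 widest, the 5 of highest mean in both Gcn5 knockdown libraries, the 5 strongest found at stages 5 and 6 and in both w libraries but in no Gcn5 library, the 3 strongest with no later H3K14ac, the 3 strongest with H3K9 methylation at both later stages, the 3 nearest to the boundary on either side, and up to 5 genes per list by stage 4 fold enrichment. Genes beyond the rule, such as twi, zld and run, were named after their values were seen. Alternatives varied the overlap (50% of a region), the −log10 q (at least 5), the number of peaks per list, the distance from methylation (1000 bp), the arms used, the gene window (100 and 1000 bp) and each replicate left out.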

Additional observations from a re-analysis of the deposited data

Results flagged for a closer look

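The share of methylation-free regions with H3K9me3 moved in opposite directions in the knockdowns and in the SetDB1 alleles, as did the H3K9me3 lists as a whole. Both Gcn5 knockdown libraries (2.01% and 2.74%) were above both w knockdown libraries (1.32% and 1.08%), while both F578A libraries (0.556% and 0.312%) were below both WT libraries (0.764% and 0.729%). The Gcn5 effect minus the F578A effect was 1.49 percentage points, with an exact two-sided permutation p of 0.0556 over labels exchanged within each comparison, the smallest that this design can give. Genome windows moved the same ways, with 8.02% and 9.11% in the Gcn5 knockdown and 6.02% and 5.81% in the w knockdown, and 5.02% and 4.52% in F578A and 6.99% and 7.19% in WT. The methylated H3K14ac peaks differed by 19.7 and -15.3 percentage points, so the pattern is not particular to the methylation-free regions, whose 8 shares all lay below the windows. With 3984 peaks in every knockdown list the Gcn5 difference was 0.0347 percentage points, and with 3168 peaks in every list the F578A difference was -0.278.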

How the results depend on the processing

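The sign did not change for H3K14ac and H3K9me3 in the knockdowns or for H3K9me3 in F578A under the alternatives run, and no p could pass in this design. An unchanged sign does not mean a kept difference. With lists of equal length the H3K14ac groups overlapped, and the knockdown H3K9me3 counts were nearly equal (33 and 33 in Gcn5, 33 and 31 in w). The H3K14ac difference ran from -16.5 to -0.486 percentage points, smallest with lists of equal length and next with −log10 q of at least 5 (-1.56), and leaving out 1 library gave -23.6 to -9.31, the extremes being without w replicate 2 and without w replicate 1. The H3K9me3 difference in the knockdowns ran from 0.0174 to 1.18 (0.816 to 1.55 with 1 library left out), and in F578A from -0.313 to -0.0868 (-0.434 to -0.191). GFP-SetDB1 in the knockdowns turned to 0.0868 once every list was cut to 115 peaks (-0.781 to -0.295 with 1 library left out). GFP-SetDB1 in F578A turned to 0.0174 with 50% of a region covered, 0.0694 at a −log10 q of at least 5, 0.590 with lists of equal length and 0.0175 for regions at least 1000 bp from methylation. Leaving out 1 library gave -2.27 to 1.89, positive without F578A replicate 2 (1.89) and without WT replicate 1 (1.6). The replicate block, pairing same-numbered libraries, left each difference as it was (-16.4, -0.538, 1.18, -0.191 and -0.312), with a sign-flip p of 0.5 at the smallest.

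With 50% of a region covered, −log10 q of at least 5, and as many peaks as at stage 4, the stage 5 share was 63.2%, 15.6% and 40.6% and the stage 6 share 86.0%, 44.4% and 49.3%. Later methylation was 0.0694% and 0.104% at stage 5 under the overlap and q alternatives, and 0.208%, 0.278% and 0.382% at stage 6 under all 3. The share near a gene end was 31.9% with 100 bp and 55.5% with 1000 bp. Only 46 regions had a stage 4 −log10 q of at least 5.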
